A study of Mus musculus with 15 samples.

Results

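Cysteine supply and use were followed through 9 genes in mouse prostate epithelial cells grown as organoids. They cover cystine uptake (Slc7a11), the transsulfuration route (Cbs and Cth), oxidation of cysteine towards taurine (Cdo1 and Csad), taurine uptake (Slc6a6), the first step of glutathione synthesis (Gclc and Gclm) and a sulfur-handling selenium-binding protein (Selenbp1). The genes were chosen by name from the pathway, with earlier results on these libraries known, among them the level of Cdo1 in Ezh2 null and control cells. All 9 are among the 21886 genes of the deposited RPKM table (reads scaled by transcript length and library size) and among the 14301 genes of the deposited count table. Comparisons of the 9 genes that use Ezh2 null or control libraries are therefore descriptions. No p is given for the 9 there, and counts past the threshold are not read as results. Tests are given for double null against Setd2 null cells, where the filter fixed the outcome for Cdo1, and for K735R against wild-type Ezh2 cells.

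Per the labels, the cells came from C57BL/6 mice, and 4 genotypes came from 3-month-old animals. Double null cells were Setd2PC-/-;Ezh2PC-/-, Ezh2 null cells were Ezh2PC-/-, Setd2 null cells were Setd2PC-/-, and control cells had neither deletion. All 4 groups shared a further alteration, controls included, so the control cells were not wild type. Each of these groups had 2 libraries, and each library was a pool of equal amounts of RNA from 3 biological replicates, so spreads and p-values are those between pools. A separate pair of groups came from 2-month-old mice: Ezh2K735R cells carried an Ezh2 form with lysine changed to arginine, and the other cells had wild-type Ezh2, with 2 libraries each and no pool size stated. Both groups of this pair also shared an alteration besides Ezh2, which differed from that of the first 4 groups. The labels do not name the driver of the deletions. Ezh2 is the catalytic subunit of the Polycomb complex that methylates histone H3 lysine 27, and Setd2 trimethylates histone H3 lysine 36.

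Cystine enters cells through Slc7a11 in exchange for glutamate and is reduced to cysteine, and cysteine is also made from homocysteine by Cbs and then Cth. Cells then spend cysteine on protein, on the antioxidant tripeptide glutathione, whose synthesis starts with glutamate-cysteine ligase, or on oxidation by Cdo1, which leads to taurine and sulfate. Slc7a11, Gclc and Gclm are textbook targets of the stress factor NRF2, and Slc7a11 and Cth also of ATF4. In human prostate cancer CDO1 is known for promoter methylation and SELENBP1 for low expression.

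Promoter sequence is shown for Slc7a11 and Gclm, whose levels moved together with Ezh2 genotype and which each held a motif of these factors, and for Selenbp1, which followed a different pattern and held neither. Sequences are from RefSeq on GRCm38.p6, cover the 250 bases before the transcription start and are written 5′ to 3′ on the gene's strand, with motif matches in capitals. The Slc7a11 window is chr3:50443614-50443863 on the minus strand, and it lies inside the deposited Slc7a11 interval, which extends further upstream. The Gclm window is chr3:122245307-122245556 and the Selenbp1 window is chr3:94932833-94933082, both on the plus strand.
Slc7a11: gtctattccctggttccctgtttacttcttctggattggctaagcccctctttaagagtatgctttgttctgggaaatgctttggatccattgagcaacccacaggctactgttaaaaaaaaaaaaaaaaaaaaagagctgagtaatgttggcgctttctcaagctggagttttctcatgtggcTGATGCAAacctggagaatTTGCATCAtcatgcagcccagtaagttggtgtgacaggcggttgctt
Gclm: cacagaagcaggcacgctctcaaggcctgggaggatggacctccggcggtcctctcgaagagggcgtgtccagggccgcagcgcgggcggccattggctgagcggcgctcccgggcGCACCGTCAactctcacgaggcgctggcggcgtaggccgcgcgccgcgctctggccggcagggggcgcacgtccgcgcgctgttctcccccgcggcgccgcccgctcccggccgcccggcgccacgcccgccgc
Selenbp1: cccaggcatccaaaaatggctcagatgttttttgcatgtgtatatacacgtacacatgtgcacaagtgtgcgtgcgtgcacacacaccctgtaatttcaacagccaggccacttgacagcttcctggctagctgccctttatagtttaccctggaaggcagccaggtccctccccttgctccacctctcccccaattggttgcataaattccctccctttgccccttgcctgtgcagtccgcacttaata
The search covered both strands for the antioxidant response element core, TGACNNNGC, to which NRF2 binds, and for the core of the C/EBP-ATF response element, TGATGNAA, to which ATF4 binds. Slc7a11 held the C/EBP-ATF core on both strands, as TGATGCAA at 66 to 59 bases before the start and, on the opposite strand, as TTGCATCA at 47 to 40 bases before it. Gclm held the antioxidant core on the opposite strand, as GCACCGTCA at 134 to 126 bases before the start. No match of one motif overlapped a match of the other. Among 32851 mouse promoters of the same length, 10.2% held the antioxidant core and 3.45% the C/EBP-ATF core. Windows of Cbs and of both starts of Csad held neither core, although Csad was also higher with Ezh2 deleted. Whether the motifs bear on the levels was not tested. Gclc, Cth and Slc6a6 are named here without sequence, and that of Cdo1 is not printed.

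Setd2 stood at 8.99 and 7.54 RPKM in double null, 14.6 and 11.6 in Ezh2 null, 8.75 and 10.3 in Setd2 null, and 17.0 and 16.1 in control cells. The Setd2 null libraries lay below control, with a log2 fold change of -0.74 ± 0.15 (SE) that missed the threshold (limma adjusted p = 0.0563). Ezh2 stood at 16.6 and 14.2 RPKM in double null, 13.8 and 11.6 in Ezh2 null, 24.2 and 20.7 in Setd2 null, and 19.4 and 20.8 in control cells, and fell in double null against Setd2 null cells by 0.52 on the log2 scale (adjusted p = 0.0121). Setd2 fell in double null against Ezh2 null cells by 0.60 (adjusted p = 0.0425). These values cover whole transcripts, and the deleted exons are not given. Reads per library, recovered from the RPKM values, ranged from 46871235 to 54152769 in double null and Ezh2 null cells and from 29660365 to 34847038 in Setd2 null and control cells. The first principal component of the genes averaging 1 RPKM or more (81.2% of variance) separated the same libraries. Luminal and basal prostate markers were present in every library, except that the luminal marker Pbsn was at 0 in the Setd2 null and control libraries. Luminal markers summed to 2103 to 2133 RPKM in double null and 2454 to 2467 in Ezh2 null cells. The sums were 2187 to 2758 RPKM in Setd2 null and 2188 to 2318 in control cells, so Ezh2 genotypes overlapped. The luminal list was split, with 6 of 9 genes called higher and 2 lower in double null against Setd2 null cells. The summed basal markers were 5525 to 6534 RPKM in double null, 3897 to 4923 in Ezh2 null, 2482 to 3018 in Setd2 null and 2652 to 2731 in control cells, but the list was split, with 5 of 8 genes called higher and 3 lower in double null against Setd2 null cells and 3 each way in Ezh2 null against control cells. Pan-epithelial markers summed to 3632 to 4311 RPKM in double null, 3481 to 4140 in Ezh2 null, 5918 to 6722 in Setd2 null and 5990 to 6046 in control cells, with 3 of 5 genes lower and none higher in double null against Setd2 null cells. Seminal vesicle markers summed to 36.1 to 52.1 RPKM in double null and 38.5 to 51.5 in Ezh2 null cells, with Svs3a and Svs6 at 0, against 0 in Setd2 null and at most 0.0323 in control cells. Stromal markers summed to 30.8 to 35.6 RPKM in double null, 37.0 to 38.2 in Ezh2 null, 58.9 to 60.3 in Setd2 null and 77.5 to 87.5 in control cells, yet 4 of the 5 stromal genes tested were called higher and 1 lower in double null against Setd2 null cells. Depth and the summed basal, pan-epithelial, seminal vesicle and stromal markers moved with the Ezh2 genotype, and the summed luminal markers did not. The part of depth and markers in the results below was not tested. In such bulk libraries fewer cells of a type and less RNA per cell cannot be told apart.

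Cells with Ezh2 deleted held higher levels of Slc7a11, Cth, Cdo1, Csad, Gclc and Gclm than cells with Ezh2 intact, with no overlap between libraries, whether or not Setd2 was deleted. How many of all genes were separated in this way was not counted. The first principal component split the libraries likewise, and 36.1% of all genes were called higher in Ezh2 null against control cells. Such separation is therefore not read as particular to these genes. In double null against Setd2 null cells, 8 of the 9 genes rose and none fell at an adjusted p of at most 0.05 (limma on log2(RPKM + 1), Benjamini-Hochberg over 11338 genes). Under edgeR or DESeq2 on recovered reads, with a log2 change of 1 or more also required, or without double null library 1, 6 of the 9 were called. The rise of Cdo1 was the largest among them. Cdo1 reached the filter of 1 RPKM only through the groups with Ezh2 deleted, so it had to differ, and its call is no support. The other 8 averaged over 1 RPKM in each of the 4 groups. Of all genes tested, 35.6% were called higher and 19.4% lower in that comparison, and after quantile normalization the share of higher among the called genes was 48.3%, against 64.7% without it. The members' median log2 fold change was 1.16, beside 0.18 for all genes. After quantile normalization the median of all genes was 0.00, and members such as Slc7a11 (1.31) and Csad (0.89) were lower too. These 4 libraries are not those on which the level of Cdo1 had been seen, but the Ezh2 deletion is the same one, so the agreement in direction is no independent finding.

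**Figure D1:**
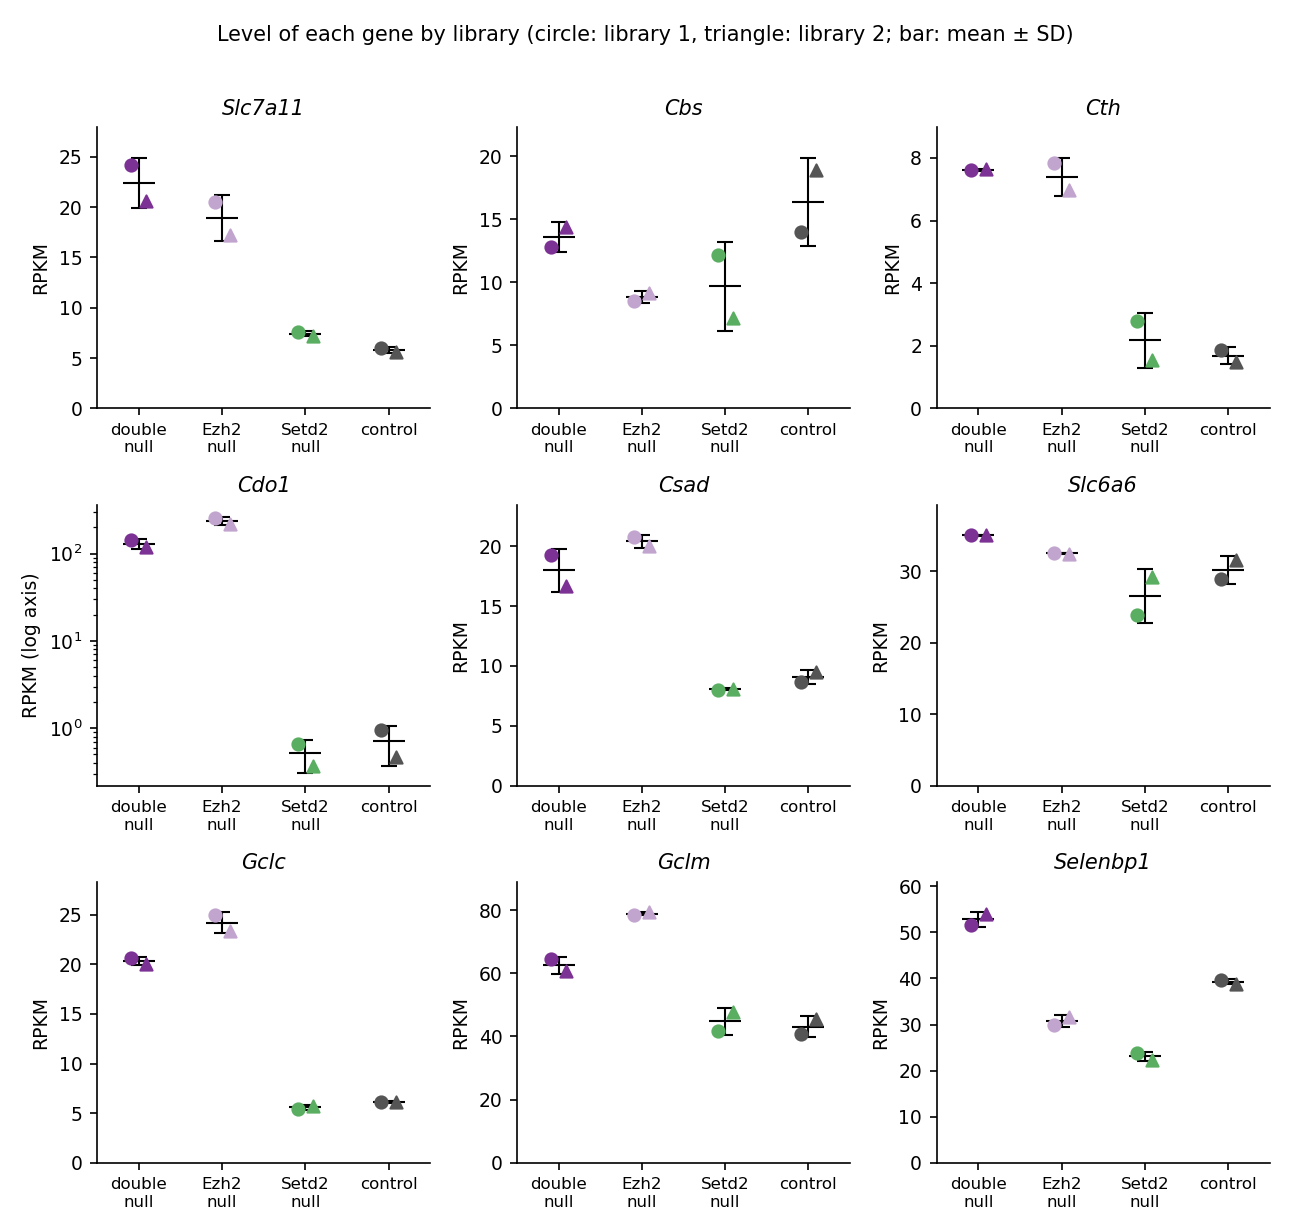
RPKM of the 9 genes (y axes, linear from 0 except a log axis for Cdo1) in double null, Ezh2 null, Setd2 null and control cells (x axis), with library 1 as a circle, library 2 as a triangle and the mean ± SD as bars. Cdo1 lies between 118 and 254 RPKM in the 4 libraries with Ezh2 deleted, against 0.370 to 0.961 in the other 4, while Selenbp1 is highest in double null cells.

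Slc7a11 (chr3:50364936-50499087 in mm10, minus strand), the cystine-glutamate exchanger, measured 24.2 and 20.6 RPKM in double null, 20.5 and 17.2 in Ezh2 null, 7.58 and 7.22 in Setd2 null, and 6.04 and 5.63 in control cells. Every library with Ezh2 deleted was above every library with Ezh2 intact. The mean was 22.4 ± 2.52 RPKM in double null against 7.40 ± 0.251 in Setd2 null cells (SD, n = 2 each), 3.03 times as high, with a log2 fold change of 1.48 ± 0.13 (SE, adjusted p = 1.57e-05). Ezh2 null cells averaged 18.9 ± 2.30 RPKM against 5.83 ± 0.290 in control cells, 3.23 times as high. Setd2 deletion gave smaller differences, with log2 fold changes of 0.30 ± 0.13 (SE) for Setd2 null against control and 0.24 ± 0.13 (SE) for double null against Ezh2 null cells. Slc3a2, the heavy chain that carries the exchanger to the membrane, did not pass the test, at 39.8 ± 4.42 RPKM in double null and 43.0 ± 4.67 RPKM in Setd2 null cells (adjusted p = 0.537).

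The transsulfuration pair differed from each other. Cth (chr3:157894248-157925077, minus strand), which releases cysteine from cystathionine, measured 7.60 and 7.63 RPKM in double null, 7.83 and 6.96 in Ezh2 null, 2.80 and 1.56 in Setd2 null, and 1.87 and 1.48 in control cells. As with Slc7a11, libraries with Ezh2 deleted and intact did not overlap. Double null exceeded Setd2 null cells 3.49 times in mean RPKM, with a log2 fold change of 1.46 ± 0.18 (SE, adjusted p = 0.000132). The ratio of Ezh2 null to control cells was 4.41. Between double null and Ezh2 null cells the log2 difference was 0.04 ± 0.18 (SE), with libraries that overlapped.

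Cbs (chr17:31612623-31637233, minus strand), which joins homocysteine and serine into cystathionine, measured 12.8 and 14.4 RPKM in double null, 8.53 and 9.17 in Ezh2 null, 12.2 and 7.20 in Setd2 null, and 14.0 and 18.9 in control cells. By mean it was highest in control cells, which overlapped double null cells, and lowest in Ezh2 null cells. The Setd2 null pair was spread, with 12.2 RPKM above both Ezh2 null libraries and 7.20 RPKM below both. Its rise in double null over Setd2 null cells was 0.49 on the log2 scale (adjusted p = 0.0850). That rise was 0.83 without Setd2 null library 1 and 0.14 without Setd2 null library 2. In Ezh2 null cells it was at 0.538 of the control mean, 8.85 ± 0.452 against 16.4 ± 3.52 RPKM (SD, n = 2 each). The Ezh2 effect differed between Setd2 null and control backgrounds by 1.30 ± 0.31 on the log2 scale (SE). Over the alternatives this difference ran from 0.95 to 1.64, the latter without Setd2 null library 1.

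Cdo1 (cysteine dioxygenase, chromosome 18) measured 142 and 118 RPKM in double null, 254 and 220 in Ezh2 null, 0.666 and 0.370 in Setd2 null, and 0.961 and 0.470 in control cells. These levels rest on 12854 and 10898 reads in double null, 25644 and 19001 in Ezh2 null, 40 and 24 in Setd2 null, and 53 and 26 in control cells. By length-corrected level it was the highest of the 9 genes in double null cells, at 130 ± 17.1 RPKM, and the lowest of them in control cells, at 0.715 ± 0.348 RPKM. Double null cells held 251 times the mean RPKM of Setd2 null cells, with a log2 fold change of 6.43 ± 0.18 (SE) that the added 1 RPKM makes smaller. On recovered reads edgeR gave 7.79. No p is given for this difference, since Cdo1 reached the filter only through the groups with Ezh2 deleted. The mean in Ezh2 null cells, 237 ± 24.0 RPKM, was 331 times that in control cells.

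Among cells with Ezh2 deleted, Cdo1 was lower when Setd2 was also deleted, at 130 ± 17.1 RPKM in double null against 237 ± 24.0 RPKM in Ezh2 null cells (SD, n = 2 each), and the libraries did not overlap. The log2 fold change was -0.86 ± 0.18 (SE), and -0.73 without double null library 2. With Ezh2 intact the Setd2 null and control libraries overlapped, all below 1 RPKM, at a log2 difference of -0.17 ± 0.18 (SE). The interaction of the deletions was -0.69 ± 0.25 on the log2 scale (SE).

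Csad (chr15:102176997-102205052, minus strand) decarboxylates cysteine sulfinate, the product of Cdo1, on the way to taurine. It measured 19.3 and 16.7 RPKM in double null, 20.8 and 20.0 in Ezh2 null, 8.09 in Setd2 null library 2 and just below that in library 1 (8.05 ± 0.0670 as the mean), and 8.66 and 9.52 in control cells. Libraries with Ezh2 deleted were again all above the others, and double null cells were at 2.24 times the Setd2 null mean (log2 fold change 1.07 ± 0.12, SE, adjusted p = 6.86e-05). Ezh2 null cells were at 2.25 times the control mean. Log2 differences with Setd2 genotype were small, at -0.17 ± 0.12 (SE) in double null against Ezh2 null cells and -0.16 ± 0.12 (SE) in Setd2 null against control cells.

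Slc6a6 (chr6:91684046-91759063, plus strand), the taurine transporter, varied least of the 9. It measured 35.0 and 35.1 RPKM in double null, 32.6 and 32.4 in Ezh2 null, 23.8 and 29.2 in Setd2 null, and 28.9 and 31.6 in control cells. Its rise in double null over Setd2 null cells was 0.40 ± 0.13 on the log2 scale (SE, adjusted p = 0.0266). That call was lost after quantile normalization (0.28, adjusted p = 0.0970), in edgeR (0.22, adjusted p = 0.206) and DESeq2 (0.21, adjusted p = 0.237) on recovered reads, and with only the compared groups (adjusted p = 0.0691). It was lost also without double null library 1 (adjusted p = 0.0886), double null library 2 (0.0975) or Setd2 null library 1 (0.109). In Ezh2 null against control cells the difference was 0.10, and it turned to -0.04 after quantile normalization, -0.10 in edgeR and -0.08 in DESeq2.

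Both subunits of glutamate-cysteine ligase were higher with Ezh2 deleted, the catalytic one by more. Gclc (chr9:77754518-77794489, plus strand) measured 20.6 and 20.0 RPKM in double null, 25.0 and 23.4 in Ezh2 null, 5.38 and 5.75 in Setd2 null, and 6.16 and 6.08 in control cells. Double null cells were at 3.64 times the Setd2 null mean, with a log2 fold change of 1.70 ± 0.11 (SE, adjusted p = 2.03e-06), and Ezh2 null cells at 3.95 times the control mean.

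Gclm (chr3:122245557-122267215, plus strand), the modifier subunit, measured 64.6 and 60.7 RPKM in double null, 78.5 and 79.3 in Ezh2 null, 41.8 and 47.8 in Setd2 null, and 40.8 and 45.4 in control cells. It was more abundant per length than Gclc in every library. The mean was 62.6 ± 2.72 RPKM in double null against 44.8 ± 4.24 in Setd2 null cells (SD, n = 2 each), a log2 fold change of 0.48 ± 0.13 (SE, adjusted p = 0.0103). That call was lost on recovered reads in edgeR (0.30, adjusted p = 0.0760) and DESeq2 (0.29, adjusted p = 0.0823) and without double null library 1 (0.43, adjusted p = 0.0628). In double null against Ezh2 null cells the log2 fold changes were -0.24 ± 0.11 (SE) for Gclc and -0.33 ± 0.13 (SE) for Gclm. Gss, which completes glutathione, rose to 27.7 ± 0.868 RPKM in double null, against 15.5 ± 0.521 RPKM in Setd2 null cells (adjusted p = 0.000258).

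Selenbp1 (chr3:94933083-94944758, plus strand), a selenium-binding protein whose human form oxidises methanethiol, was ordered otherwise than Slc7a11, Cth, Cdo1, Csad, Gclc and Gclm. It measured 51.6 and 53.9 RPKM in double null, 29.8 and 31.6 in Ezh2 null, 23.9 and 22.4 in Setd2 null, and 39.7 and 38.8 in control cells. No 2 groups overlapped, and the order was double null, control, Ezh2 null, Setd2 null. With Ezh2 intact it was lower with Setd2 deleted, at 23.1 ± 1.04 RPKM in Setd2 null against 39.3 ± 0.600 RPKM in control cells, or -0.74 ± 0.11 on the log2 scale (SE). With Ezh2 deleted it was higher with Setd2 deleted, at 52.8 ± 1.64 RPKM in double null against 30.7 ± 1.27 RPKM in Ezh2 null cells, a log2 fold change of 0.76 ± 0.11 (SE). Double null exceeded Setd2 null cells 2.28 times (log2 fold change 1.16 ± 0.11, SE, adjusted p = 2.85e-05), whereas Ezh2 null cells were at 0.781 of the control mean. The interaction of the deletions was 1.50 ± 0.16 on the log2 scale (SE). By mean Cbs crossed in the same direction, below control in both single deletions and above them in double null cells. Selenbp2, a close copy of Selenbp1 with which reads may be shared, stood far lower, at 3.52 ± 0.0620 RPKM in double null and 3.69 ± 0.362 RPKM in Setd2 null cells, so a division of reads between the copies is uncertain.

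Counts for the other comparisons follow as descriptions, from which nothing is read. In Setd2 null against control cells 1 of the 9, Selenbp1, was past the threshold, as lower. Of all genes, 0.379% were called higher and 0.688% lower in that comparison, and after quantile normalization 44.6% of the called genes were higher, against 35.5% without it. The members' median log2 fold change was -0.16, beside -0.02 for all genes. In double null against Ezh2 null cells 1 member was past it as higher, Selenbp1, and 1 as lower, Cdo1. Background shares there were 3.79% higher and 2.70% lower, with member and all-gene medians of 0.04 and -0.02. For the interaction, 1 member, Selenbp1, was past it as higher, beside 1.69% of all genes called higher and 0.900% lower.

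In Ezh2 null against control cells 6 members were past the threshold as higher and 2, Cbs and Selenbp1, as lower, where 36.1% of all genes were higher and 20.5% lower and 63.8% of the called genes were higher, or 50.1% after quantile normalization. Log2 fold changes there were 1.53 for Slc7a11, -0.81 for Cbs, 1.65 for Cth, 7.13 for Cdo1, 1.09 for Csad, 1.82 for Gclc, 0.86 for Gclm and -0.35 for Selenbp1. In double null against control cells 7 were past it as higher and none as lower, where 34.2% of all genes were higher and 20.0% lower, with 63.0% of called genes higher and 48.2% after quantile normalization.

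**Figure D2:**
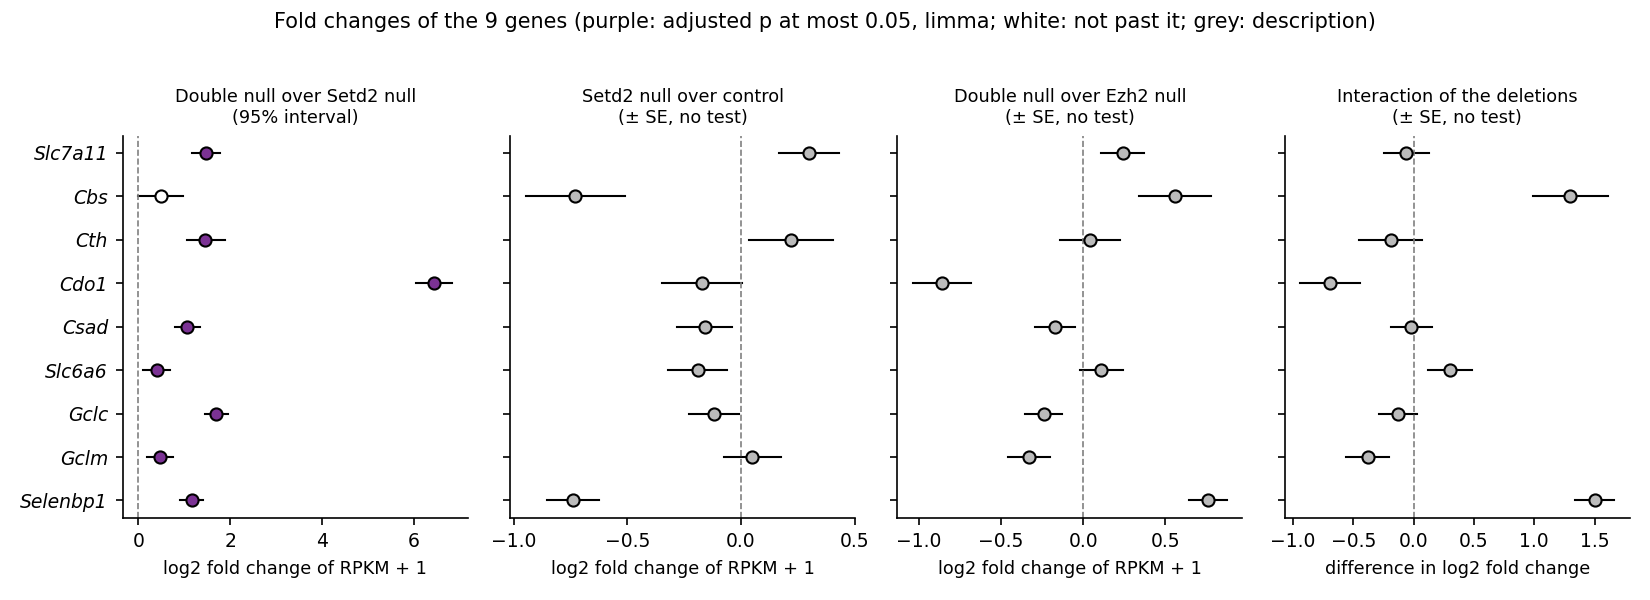
Log2 fold change of RPKM + 1 (x axes) for the 9 genes (y axis) in double null over Setd2 null cells, with 95% confidence intervals, and, with the SE and no test, in Setd2 null over control and double null over Ezh2 null cells, and the interaction of the deletions, which is the first fold change minus that of Ezh2 null over control. Purple points passed an adjusted p of 0.05: 8 genes rise in the first panel. Among them Cdo1, at 6.43, had to differ because of the filter. Selenbp1 is at 1.16, -0.74, 0.76 and 1.50 in the 4 panels.

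Genes around the 9 were described by lists that leave the members out. In double null against Setd2 null cells 35.6% of all genes were called higher and 19.4% lower. The list of cysteine oxidation, sulfide and taurine genes had the highest share of calls of the 9 lists in double null against Setd2 null cells, with 8 of 9 tested genes called higher, none lower and a median log2 fold change of 1.22, beside 0.18 for all genes. It included Ado, a thiol dioxygenase that oxidises cysteamine, at 10.8 ± 1.22 RPKM in double null against 3.83 ± 0.696 in Setd2 null cells (adjusted p = 6.40e-05). Suox, which turns sulfite into sulfate, rose to 37.2 ± 4.85 RPKM in double null, against 7.97 ± 2.10 RPKM in Setd2 null cells (adjusted p = 9.80e-06). Got2, the mitochondrial aspartate aminotransferase, which also acts on cysteine sulfinate, rose to 152 ± 13.1 RPKM against 51.1 ± 4.26 RPKM, and Mpst, a sulfurtransferase, to 36.0 ± 5.42 RPKM against 16.0 ± 0.406 RPKM, in the same groups.

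Upstream, in the methionine cycle, 5 of 9 tested genes rose and 1 fell, beside 35.6% of all genes called higher and 19.4% lower. Mat2a, which makes S-adenosylmethionine, rose to 78.2 ± 13.3 RPKM in double null, against 31.2 ± 0.174 RPKM in Setd2 null cells (adjusted p = 0.000136), and Ahcy, which yields homocysteine, rose to 56.1 ± 9.42 RPKM, against 21.5 ± 3.33 RPKM (adjusted p = 0.000130). Ahcyl1 fell to 53.4 ± 1.47 RPKM, against 89.4 ± 2.76 RPKM (adjusted p = 0.000591). Of 4 tested transporters of cysteine and related amino acids 2 rose, Slc1a4 and Slc1a5. Slc7a5 did not pass, at 70.0 ± 7.26 RPKM in double null and 75.5 ± 20.6 RPKM in Setd2 null cells (limma adjusted p = 0.716).

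Glutathione synthesis and turnover genes went both ways, with 6 of 12 called higher and 2 lower. Of all genes, 35.6% were called higher and 19.4% lower. Anpep, a membrane aminopeptidase of the list, rose to 86.3 ± 3.35 RPKM in double null, against 34.3 ± 4.94 RPKM in Setd2 null cells (adjusted p = 4.05e-05). Ggct, which breaks down gamma-glutamyl products, fell to 18.5 ± 0.894 RPKM, against 52.7 ± 5.37 RPKM (adjusted p = 0.000102). Cndp2 did not pass, at 34.9 ± 4.27 RPKM against 32.1 ± 2.64 RPKM (limma adjusted p = 0.513). Nor did Chac1, at 5.62 ± 2.21 RPKM against 7.55 ± 0.187 RPKM (adjusted p = 0.161). Among reductase, peroxidase and glutaredoxin genes 5 of 10 rose and 2 fell, beside the same shares of all genes. Gpx2 rose to 137 ± 6.16 RPKM, against 97.3 ± 18.4 RPKM (limma adjusted p = 0.0160). Gpx1 did not pass, at 285 ± 34.6 RPKM against 271 ± 44.9 RPKM (adjusted p = 0.708). Gsr, which regenerates reduced glutathione, fell to 57.4 ± 5.96 RPKM, against 81.4 ± 3.18 RPKM (adjusted p = 0.0116), and Gpx4, the lipid peroxide reductase, was at 99.0 ± 19.2 RPKM, against 101 ± 8.95 RPKM (adjusted p = 0.869).

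Glutathione transferases were the largest list, with 11 of 19 called higher and 3 lower at a median log2 fold change of 1.04. The shares of all genes were 35.6% higher and 19.4% lower. Gsto1 rose to 2409 ± 200 RPKM in double null, against 576 ± 22.6 RPKM in Setd2 null cells (adjusted p = 3.15e-06), and Gsta4 to 681 ± 11.1 RPKM, against 217 ± 56.7 RPKM (adjusted p = 4.82e-05), while Gstp1 fell to 222 ± 46.9 RPKM, against 343 ± 58.5 RPKM (adjusted p = 0.0274). Several of these genes have near-identical copies, so their shares of reads are uncertain. In double null against Ezh2 null cells Gsta1 and Gsto1 rose and Gsta3, Gstt1, Gstt2 and Mgst1 fell, and the interaction called Gsta3, Gstp2 and Gstt1 lower.

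The NRF2 and ATF4 lists had shares of genes called higher nearer to that of all genes than the other lists. That of all genes was 35.6%, with 19.4% called lower. Of 19 NRF2 pathway genes 6 rose and 2 fell in double null against Setd2 null cells, at a median log2 fold change of 0.07, beside 0.18 for all genes. The lists leave out the NRF2 targets Slc7a11, Gclc and Gclm and the ATF4 targets Slc7a11 and Cth, all called higher as members. Shares of the 2 lists are therefore lower than they would be with these genes, and a part of either factor was not tested. Nqo1, a standard NRF2 target, was at 4.27 ± 0.728 RPKM in double null and 4.73 ± 0.389 RPKM in Setd2 null cells (adjusted p = 0.454), and Nfe2l2, which encodes NRF2, at 52.9 ± 7.80 and 58.4 ± 3.69 RPKM (adjusted p = 0.417). Txnrd1, thioredoxin reductase, rose to 46.0 ± 0.770 RPKM in double null, against 28.9 ± 4.19 RPKM in Setd2 null cells (adjusted p = 0.00212), and Fth1, the ferritin heavy chain, rose to 789 ± 21.3 RPKM, against 241 ± 38.8 RPKM (adjusted p = 1.28e-05). Ftl1 did not pass, at 690 ± 96.5 RPKM against 722 ± 7.56 RPKM (limma adjusted p = 0.717). Nor did Prdx1, at 257 ± 41.2 RPKM against 242 ± 45.5 RPKM (adjusted p = 0.722).

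Of 14 ATF4 pathway genes 6 rose and 2, Ddit3 and Trib3, fell, at a median of 0.30. For this list and the selenium list below, the shares of all genes were 35.6% higher and 19.4% lower. Phgdh, the first enzyme of serine synthesis, rose to 97.3 ± 10.8 RPKM in double null, against 23.5 ± 7.82 RPKM in Setd2 null cells (adjusted p = 6.65e-05). Atf4 itself was at 114 ± 2.65 RPKM in double null and 127 ± 3.30 RPKM in Setd2 null cells (adjusted p = 0.286), and Asns, asparagine synthetase, at 28.2 ± 0.722 and 29.9 ± 10.1 RPKM (adjusted p = 0.880). Eif4ebp1 was at 128 ± 32.8 and 127 ± 8.04 RPKM in the same groups (limma adjusted p = 0.971). Of 8 selenium and selenoprotein genes 4 rose and none fell, among them Sepp1, the plasma selenium carrier, at 53.0 ± 9.07 RPKM in double null against 6.89 ± 1.32 RPKM in Setd2 null cells (adjusted p = 3.45e-06). Msrb1 also rose, to 46.0 ± 10.7 RPKM against 28.2 ± 3.19 RPKM (limma adjusted p = 0.0126). Sepw1 did not pass, at 131 ± 40.8 RPKM against 94.7 ± 10.3 RPKM (adjusted p = 0.169). In Setd2 null against control cells the lists together held 1 called higher gene, Gstp2, and 1 lower, Gpx3. There 0.379% of all genes were called higher and 0.688% lower.

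**Figure D3:**
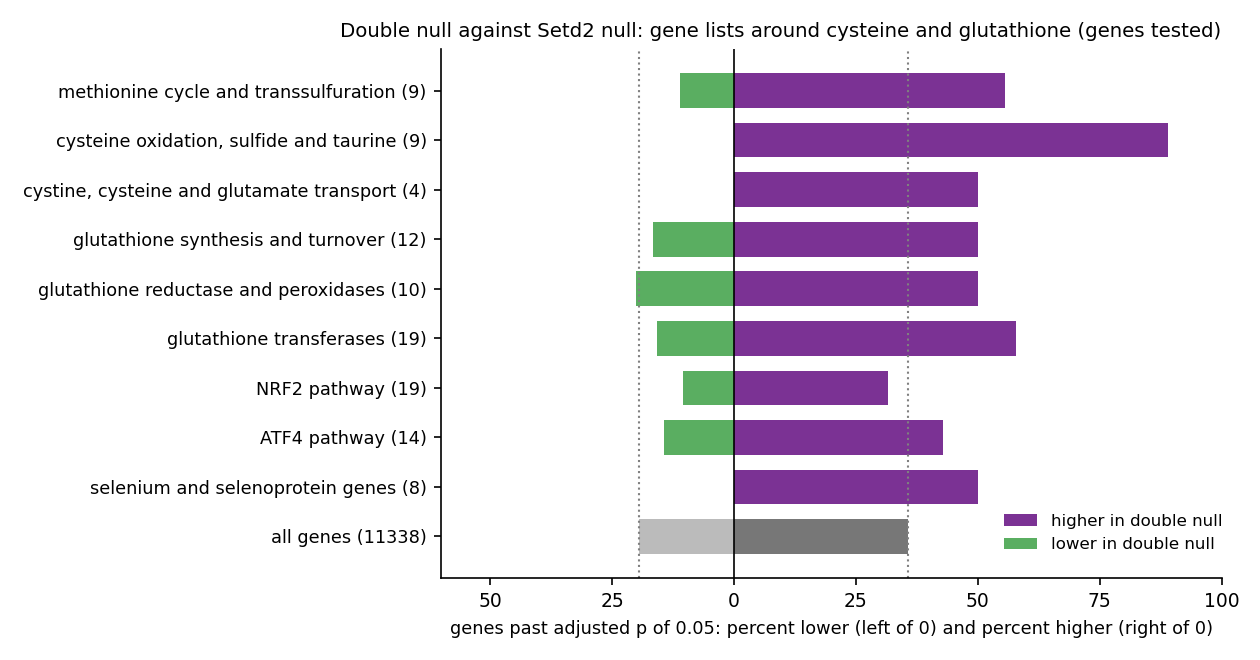
Percent of tested genes past an adjusted p of 0.05 in double null against Setd2 null cells (x axis, higher to the right of 0 and lower to the left), for 9 gene lists and all 11338 genes (y axis, genes tested in parentheses), with dotted lines at the shares of all genes. The cysteine oxidation, sulfide and taurine list reaches 8 of 9 higher with none lower. The NRF2 list, which leaves out the members Slc7a11, Gclc and Gclm, is at 6 of 19, beside 35.6% of all genes.

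Likeness of pattern was measured as Pearson's r of log2(RPKM + 1) over the 8 libraries, as a description. It was taken against 8063 genes that averaged 5 RPKM or more, leaving out predicted genes, clone names, pseudogenes and microRNAs. The libraries fall into 2 clusters by Ezh2 genotype, so a high r mostly repeats that split. The genes most like Cdo1 were Gstm2 (r = 0.9996), Gjb1 (0.9989) and Spink8 (0.9987), with 1182 genes at 0.95 or more. For Slc7a11 they were Cldn1 (0.9977), Pa2g4 (0.9953) and Ssrp1 (0.9946), with 618 genes at that level. Selenbp1 had 1 such gene, Ifitm1 (0.9587), followed by Adamts1 (0.9271) and Acsf2 (0.9210). Ifitm1, an interferon-induced membrane protein, averaged 20.4 RPKM in double null, 5.23 in Ezh2 null, 3.22 in Setd2 null and 7.26 in control cells, the same order of groups as Selenbp1.

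None of the 9 genes passed in K735R against wild-type Ezh2 cells (edgeR quasi-likelihood test on counts, 13203 genes). Of all genes 0% were called higher and 0.00757% lower, and 1220 genes and 0 members were under an unadjusted p of 0.05. DESeq2 and limma on log2 CPM also called 0 of the 9. Levels are counts scaled to library size (CPM), which are not corrected for length. The members' median log2 fold change was -0.13, beside -0.01 for all genes.

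Cdo1 was low in both groups, at 1.77 and 1.84 CPM in K735R cells against 1.33 and 1.53 CPM in wild-type Ezh2 cells. These levels rest on 53 and 53 counts in K735R and 40 and 57 counts in wild-type cells. The log2 fold change was 0.33 (95% interval -0.68 to 1.34, adjusted p = 0.845). Slc7a11 was at 236 and 222 CPM in K735R cells, between 382 and 166 CPM in wild-type Ezh2 cells. The wild-type pair therefore set its fold change of -0.26 on the log2 scale (adjusted p = 0.885): without wild-type library 1 it was 0.47 (adjusted p = 0.0171), and without wild-type library 2 it was -0.73 (adjusted p = 0.000479), in fits where the lone wild-type library is assumed to vary like the K735R pair.

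Gclc showed the same split of the wild-type pair, with 50.9 and 46.6 CPM in K735R against 73.8 and 46.4 CPM in wild-type cells, a log2 fold change of -0.30 (adjusted p = 0.747) that passed in the same kind of fit without wild-type library 2 (-0.59, adjusted p = 0.00778). Csad was at 50.9 and 59.3 CPM in K735R against 70.1 and 62.3 CPM in wild-type cells, with no overlap and a log2 fold change of -0.27 (95% interval -0.58 to 0.05, adjusted p = 0.586). Gclm was at 77.3 and 79.1 CPM against 90.1 and 81.0 CPM, also without overlap (-0.13, adjusted p = 0.720). Cbs had 6.80 and 14.9 CPM in K735R against 13.3 and 15.1 CPM in wild-type cells, and Cth 10.7 and 8.59 CPM against 11.5 and 6.25 CPM. Slc6a6 had 203 and 242 CPM in K735R against 238 and 218 CPM in wild-type cells. Selenbp1 was at 5.73 and 4.47 CPM in K735R against 5.44 and 2.53 CPM in wild-type cells (0.36, adjusted p = 0.853). Intervals as wide as that of Cdo1 do not show that K735R and wild-type cells were alike. On the 9 lists around the pathway no gene was called in this comparison.

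**Figure D4:**
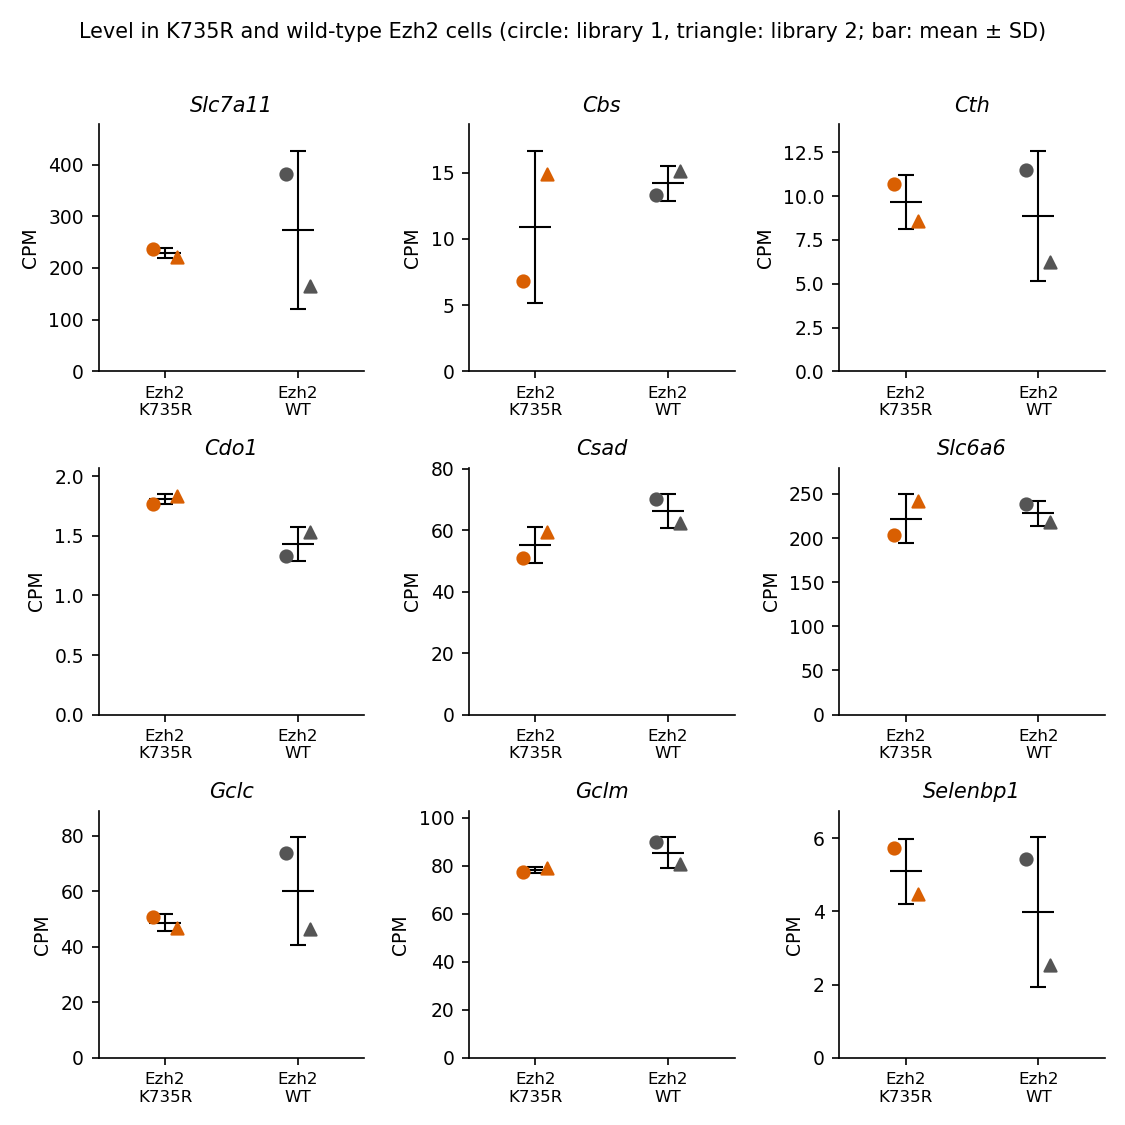
CPM of the 9 genes (y axes, from 0) in Ezh2 K735R and wild-type Ezh2 cells (x axis), with library 1 as a circle, library 2 as a triangle and the mean ± SD as bars. Slc7a11 ranges from 166 to 382 CPM within the wild-type pair, wider than the K735R pair at 222 to 236 CPM, and Cdo1 stays below 2 CPM in all 4 libraries.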

How the data were processed

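RNA was sequenced as paired reads on an Illumina HiSeq, per the labels. The deposited RPKM table gives 4 genotypes, and the deposited count table, whole numbers whose unit was taken from the values, gives K735R and wild-type Ezh2 cells. Per the submitters' processing notes, Bowtie, RSEM and mm10 were used. Tool versions, the strand setting and the treatment of reads shared by genes are in none of these notes. RPKM values step by the worth of 1 read, so whole reads could be recovered: this held within 0.01 reads for 13744 (99.97%) of the 13748 genes detected in every library.

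RPKM values were tested as log2(RPKM + 1) for the 11338 genes averaging 1 RPKM or more, all 4 groups in 1 limma 3.58.1 model (trended, robust), and counts by edgeR 4.0.16 (TMM, robust quasi-likelihood, low counts filtered). P-values are two-sided, adjusted by Benjamini-Hochberg over all genes and called at 0.05. Fold changes on the log2(RPKM + 1) scale understate changes of low genes. CPM used TMM-scaled totals, and the unscaled totals ran from 28831228 to 37482322 counts. Replicate libraries differed by more than sampling noise in every group, and same-numbered libraries were treated as unpaired. Alternatives were other scalings, filters, pseudocounts, call rules, edgeR and DESeq2 1.42.0 on recovered reads, fewer groups, and leaving out each library.

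The members, gene lists and tests were chosen with earlier results of these data known. Named beside the members are the targeted genes, 3 genes a list of highest mean RPKM, 13 further genes chosen by role, and the 3 most like patterns for Cdo1, Slc7a11 and Selenbp1. Other genes named in lists of calls were picked with their values in view. The chromatin immunoprecipitation samples were not used here. An alteration shared by all groups of each table is not reported here.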

Additional observations from a re-analysis of the deposited data

Results flagged for a closer look

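Selenbp1 is listed because its libraries moved one way with Ezh2 deletion where Setd2 was deleted too and the opposite way where it was intact. The log2 fold change was 1.16 for double null against Setd2 null cells and -0.35 for Ezh2 null against control cells, a difference of 1.50 ± 0.16 (SE). This difference was past the threshold in the fit, as counted above. It stands as a description with no p, since Ezh2 null and control libraries were in view when the genes were chosen. Both double null libraries were above both Setd2 null libraries, and both Ezh2 null libraries below both control libraries.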

How the results depend on the processing

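With the replicate number as a block the interaction called 2 of the 9 genes, against 1 without it, with Cdo1 added at -0.69. The block changed no other call of a member. Same-numbered libraries correlated at 0.933 between double null and Ezh2 null cells and at 0.105 to 0.358 between the other pairs of the 4 groups, with 2 libraries a group. In double null against Setd2 null cells the alternatives called 6 to 8 of the 9 genes. Of the 9, also asking for a log2 change of 1 or more in size left 0 called in Setd2 null against control, 5 in Ezh2 null against control, 0 in double null against Ezh2 null and 4 in double null against control cells. With only the groups compared, 0 were called in Setd2 null against control and 1 in double null against Ezh2 null cells; the count for double null against Ezh2 null cells was 1 also with a pseudocount of 0.1, with no filter and with edgeR on recovered reads. DESeq2 on recovered reads called 2 for the interaction. Leaving out each library gave 0 to 1 calls in Setd2 null against control, 1 to 2 in double null against Ezh2 null, 1 to 2 for the interaction and 0 to 2 in K735R against wild-type cells.

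Of 822 fold changes of members under an alternative, 752 kept direction and call, 41 lost the call, 6 gained it and 23 changed sign. Slc6a6 in Ezh2 null against control cells turned to -0.04, -0.10 and -0.08 under quantile normalization, edgeR and DESeq2, and Csad in the interaction to 0.01 in edgeR. Leaving out libraries moved Cth from -0.06 to 0.51, Cdo1 from -0.38 to 0.04 and Gclm from -0.04 to 0.15 in Setd2 null against control, and Cth from -0.04 to 0.11 in double null against Ezh2 null cells. For the interaction the ranges were -0.18 to 0.06 for Slc7a11, -0.47 to 0.10 for Cth and -0.11 to 0.08 for Csad. In K735R against wild-type cells they were -0.73 to 0.47 for Slc7a11, -1.06 to 0.07 for Cbs, -0.24 to 0.63 for Cth, -0.17 to 0.09 for Slc6a6, -0.59 to 0.07 for Gclc and -0.08 to 1.01 for Selenbp1. The causes were not tested. With 2 pools a group, small differences could not be resolved.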
